A study of Mus musculus with 15 samples.

Results

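The genes described here make cholesterol and fatty acids or regulate that synthesis. They were chosen by symbol and not by a cut on measured values, but with earlier results of these data known. There are 32 genes, all of them found among the 24421 gene symbols of both tables. They comprise 6 regulators, 17 enzymes of sterol synthesis and 9 enzymes of fatty acid synthesis, elongation and desaturation. RNA was sequenced from an established mouse biliary epithelial line of strain C57BL/6, whose genotype is labelled ITR-CreERT2;Klf5flox/flox in every sample. CreERT2 is a Cre recombinase that 4-OH tamoxifen activates, and Cre then deletes the floxed part of Klf5, a zinc finger transcription factor. Cells given ethanol, the solvent, are the controls. The 12 h comparison has 3 libraries with ethanol and 4 with tamoxifen, and the 24 h comparison has 4 of each. The labels name a single line and do not say whether replicates came from separate cultures, so the p-values rest on the spread among libraries that may be technical repeats. They name cells grown as structures, described in one place as in vitro and in another as in vivo. Controls carry the same alleles without tamoxifen, so what tamoxifen, active Cre and the loss of Klf5 each do cannot be told apart. In such bulk RNA, fewer cells of a type and less RNA per cell cannot be told apart either.

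Cholesterol is built from acetyl-CoA through mevalonate, isoprenoid units, squalene and lanosterol. Fatty acids are built from the same precursor by acetyl-CoA carboxylase and fatty acid synthase, and then lengthened and desaturated. Both routes are driven by the SREBP transcription factors, which are held in the endoplasmic reticulum by SCAP and the INSIG proteins while sterol is plentiful and are cut free when sterol falls. SREBPs act at sterol regulatory elements beside boxes bound by the factors NF-Y and SP1. Bile duct cells line the channels that carry bile, which is itself rich in cholesterol and phospholipid.

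The tables used here give the result of each comparison and no columns for single libraries, so levels are given per group. The level of a gene in ethanol and in tamoxifen is the one implied by the authors' mean normalised count and fold. The average library held 13.9 M normalised counts at 12 h and 11.8 M at 24 h. As a check of the labels, the authors' deposited table has Klf5 at a log2 fold of -1.29 (SE 0.23) at 12 h and -1.72 (SE 0.08) at 24 h. Of the 10 biliary markers Krt8, Krt18, Krt19 and Spp1 were abundant, with means of 6700 to 48237 normalised counts over both times in the authors' deposited table. Epcam, a surface protein of bile duct cells, was low, at 15.7 and 9.56 in the authors' deposited table, and the chloride channel gene Cftr was at 2.25 and 12.7. The keratin genes Krt7 at 12 h and Krt19 at 24 h fell in the authors' DESeq2 Wald test, and they are named after their values were seen. The 8 hepatocyte markers had summed means of 9587 at 12 h and 4877 at 24 h, so some of them were abundant. Most of each sum was Hnf4a, with means of 7584 and 4146 in the authors' deposited table. In the authors' deposited table Apoa1 had means of 1291 and 448 and Ttr of 685 and 267, while Alb had 3.68 and 1.48 and Cyp7a1 was listed at 0 at both times. Of 8 fibroblast and stellate markers 6 were listed at 0 at 12 h and 4 at 24 h, with summed means of 30.3 and 11.7, and endothelial markers summed to 1.75 and 1.84. Immune markers summed to 80.7 and 77.9, nearly all of it Cd68 in the authors' deposited table. Their part in the results below was not tested.

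Sequence before the transcription start was read for 25 members from RefSeq on GRCm38.p6, over 250 bases before each listed start. A gene with several starts, such as Srebf1, counted as holding a box if any of its windows did. Genes with more starts thus had more sequence searched. The other 7 members are Stard4, Fdps, Fdft1, Sqle, Scd1, Scd2 and Fads1. The box CCAAT, searched on both strands, was present in 20 of the 25 members (80%), against 40.3% of 11064 measured genes and 37.5% of all 27025 genes with a window. The GC box GGGCGG was in 21 (84%, against 61.2% and 35.4% in the same backgrounds). CACCC, a box of Krüppel-like factors, was in 17 (68%, against 61.4% and 54.5%), and the E-box CACGTG in 5 (20%, against 9.44% and 6.86%). The sterol regulatory element TCACNCCAC was found only in Hmgcs1 of the 25, against 1.31% of measured genes and 1.22% of all genes. CACCC can lie within this element, as it does in Hmgcs1. These are matches of letters, not sites shown to be bound. The stretches printed belong to members that the results turn on, run from 10 bases before the first match to 10 after the last or to the transcription start, as for Mvk, and touch no annotated exon. They read 5′ to 3′ on the strand of the gene, with CCAAT boxes (ATTGG where the box is on the other strand) and the sterol regulatory element in capitals. Hmgcs1 is on the forward strand at chr13:119690104-119690320, Lss on the forward strand at chr10:76531533-76531557, Mvk on the forward strand at chr5:114444086-114444268 and Mvd on the reverse strand at chr8:122443435-122443492.
Hmgcs1: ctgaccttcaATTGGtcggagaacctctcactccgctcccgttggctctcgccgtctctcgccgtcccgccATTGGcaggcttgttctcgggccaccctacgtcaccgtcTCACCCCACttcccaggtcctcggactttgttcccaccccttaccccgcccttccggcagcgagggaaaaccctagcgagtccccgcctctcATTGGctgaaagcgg
Lss: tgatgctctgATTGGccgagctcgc
Mvk: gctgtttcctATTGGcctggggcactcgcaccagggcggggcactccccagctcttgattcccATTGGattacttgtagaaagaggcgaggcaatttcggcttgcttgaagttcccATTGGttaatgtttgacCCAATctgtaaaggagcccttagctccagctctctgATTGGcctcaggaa
Mvd: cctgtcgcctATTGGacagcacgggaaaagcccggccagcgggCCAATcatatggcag

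At 12 h no member passed the test. Of the 32, 0 reached an adjusted p below 0.05 in the DESeq2 Wald test of the authors' deposited table, where 0.943% of all genes tested did (0.215% higher and 0.728% lower). At an unadjusted p below 0.05 there were also 0 members, against 4.9% of all genes (1.97% higher and 2.92% lower). Folds of the members ran from -0.30 for Hsd17b7, a late sterol reductase, to 0.18 for Scd2 on the log2 scale in the authors' deposited table. The median was -0.02, and that of all genes with a p was -0.01. All 32 intervals at 95% contained 0. The comparison was not precise for these genes: with the standard errors of the 12 h table a member needed a log2 fold of 0.36 to 1.77 to be called, with a median of 0.70. A smaller fold could not have been called for the respective gene.

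At 24 h 5 members rose, 1 fell and 26 did not pass the threshold. The rises were 15.6% of the members against 5.9% of all genes tested, and the fall was 1 gene, where 6.52% of all genes fell. In either direction 12.4% of all genes passed. At an unadjusted p under 0.05 there were 8 higher and 2 lower members, against 8.91% and 9.08% of all genes with a p, or 18% in either direction. Of the 15819 genes with a p, 9140 had a mean of at least 100 normalised counts, as did 29 of the members. Among these 9140 genes 1175 were higher and 1274 lower at an unadjusted p under 0.05, or 2449 in either direction. At the adjusted threshold 607 of them rose and 692 fell. The median log2 fold of the members was 0.07, against 0.01 for all genes with a p. Of the 32 folds 20 (62.5%) were above 0, against 51.6% of all genes with a p. All the changes were small, at most 1.36-fold. The 5 that rose were Hmgcs1, Dhcr7, Scd2, Fads1 and Fads2, and Lss fell.

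**Figure D1:**
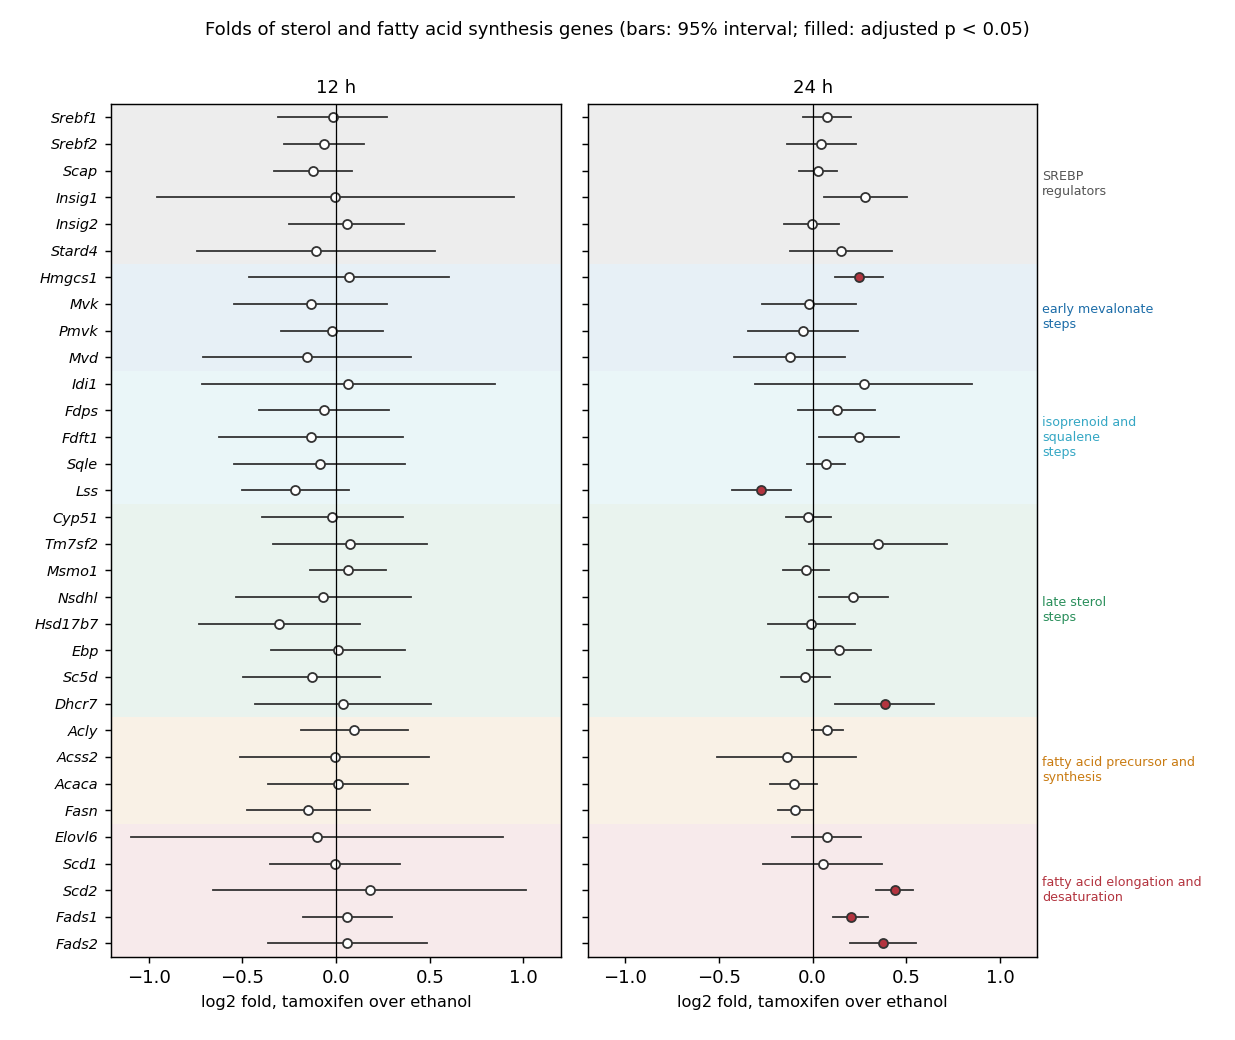
Log2 fold of tamoxifen over ethanol (x axis) for the 32 genes, ordered by pathway step, at 12 h (left) and 24 h (right). Points are the authors' folds, bars their 95% intervals, and filled points have an adjusted p under 0.05. All 12 h intervals cross 0, and at 24 h Scd2, Dhcr7, Fads2, Hmgcs1 and Fads1 lie above 0 and Lss below.

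The fatty acid desaturases gave 3 of the 5 rises. Scd2, a stearoyl-CoA desaturase that makes monounsaturated fatty acids, occupies bases 44293674 to 44306864 of chromosome 19 on the forward strand (GRCm38). Its implied level at 24 h was 2815 normalised counts in ethanol and 3815 in tamoxifen. Its log2 fold in the authors' deposited table was 0.44 (SE 0.05, 95% interval 0.34 to 0.54), and the adjusted p of the DESeq2 Wald test was 1.51e-15. This was a rise of 1.36-fold, the highest fold among the 32 members. At 12 h the implied levels of Scd2 were 6893 and 7805, and the authors' deposited table gives a log2 fold of 0.18 with an SE of 0.43. That 12 h interval ran from -0.66 to 1.02.

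Scd1, the paralogue that leads in liver parenchyma, was a minor gene in these cells. To compare genes, levels were scaled to the total of each table (CPM) and divided by transcript length in kilobases. On this scale Scd2 stood at 97.8 at 12 h and 51.3 at 24 h, and Scd1 at 2.66 and 1.47. Scd1 occupies bases 44394455 to 44407879 of the same chromosome on the reverse strand. Its implied levels at 24 h were 82.4 normalised counts in ethanol and 85.6 in tamoxifen, and its log2 fold in the authors' deposited table was 0.05 (SE 0.16). Its 95% interval, -0.26 to 0.37, overlapped that of Scd2, and the difference between both paralogues was not tested. Reads of such similar genes can be split by the counting, so their values are uncertain to that extent.

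Fads1 and Fads2, the delta-5 and delta-6 desaturases that make long polyunsaturated fatty acids, both rose. They lie close together on chromosome 19, Fads2 from 10062765 to 10101746 on the reverse strand and Fads1 from 10182888 to 10196877 on the forward strand. The implied level of Fads2 at 24 h was 255 normalised counts in ethanol and 331 in tamoxifen. Its log2 fold in the authors' deposited table was 0.38 (SE 0.09), and the adjusted p of the DESeq2 Wald test was 0.000671. Fads1 stood at 1471 in ethanol and 1695 in tamoxifen at 24 h. Its log2 fold in the authors' deposited table was 0.20 (SE 0.05), and the DESeq2 adjusted p was 0.000395. Both had a log2 fold of 0.06 at 12 h in the authors' deposited table, with SEs of 0.22 for Fads2 and 0.12 for Fads1. Elovl6, which lengthens palmitate, did not pass at 24 h: its log2 fold in the authors' deposited table was 0.07 (SE 0.09).

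None of the enzymes that make fatty acids before elongation passed the threshold. Fasn, fatty acid synthase, had implied levels at 24 h of 6177 normalised counts in ethanol and 5789 in tamoxifen, and a log2 fold in the authors' deposited table of -0.09 (SE 0.05). Its unadjusted p was 0.0478 and its adjusted p 0.20 in the authors' DESeq2 Wald test. The authors' deposited table gives a log2 fold of -0.10 (SE 0.06) for Acaca, the acetyl-CoA carboxylase of the cytosol. It was 0.08 (SE 0.04) for Acly, which makes cytosolic acetyl-CoA from citrate, and -0.14 (SE 0.19) for Acss2, which makes it from acetate, in the authors' deposited table. None of these 4 genes passed at either time, and at 24 h they ranged from -0.14 to 0.08 against 0.05 to 0.44 for the 5 elongation and desaturation genes.

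Among the 17 sterol enzymes 2 rose and 1 fell at 24 h, where 5.9% of all genes tested rose and 6.52% fell. Hmgcs1 makes HMG-CoA, the substrate of the first committed step, and occupies bases 119690379 to 119708260 of chromosome 13 on the forward strand. Its implied level at 24 h was 930 normalised counts in ethanol and 1104 in tamoxifen. Its log2 fold in the authors' deposited table was 0.25 (SE 0.07), and the adjusted p of the DESeq2 Wald test was 0.00305. At 12 h the implied levels of Hmgcs1 were 1756 and 1844. An antisense gene covers 12.1% of the exon bases of Hmgcs1, and the library kit does not mark the strand, so reads of both cannot be told apart there.

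Dhcr7, which reduces a late sterol precursor to cholesterol, occupies bases 143823145 to 143848410 of chromosome 7 on the forward strand. Its implied level at 24 h was 113 normalised counts in ethanol and 148 in tamoxifen. Its log2 fold in the authors' deposited table was 0.38 (SE 0.14), and the adjusted p of the DESeq2 Wald test was 0.0387. This call is the weakest of the 6: adjusted over all genes with a p, it was lost, at 0.0524. At 12 h Dhcr7 stood at 499.8 and 513.

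Lss, lanosterol synthase, closes squalene epoxide into the first sterol, and it was the called member that fell. It occupies bases 76531588 to 76557138 of chromosome 10 on the forward strand. Its implied level at 24 h was 957 normalised counts in ethanol and 792 in tamoxifen. Its log2 fold in the authors' deposited table was -0.27 (SE 0.08), and the adjusted p of the DESeq2 Wald test was 0.00828. The tamoxifen level was 0.828 times that in ethanol. At 12 h the levels were 1182 and 1018, and the authors' deposited table gives a log2 fold of -0.22 (SE 0.15), with an unadjusted p of 0.14 in the DESeq2 test.

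The steps on either side of Lss did not pass the threshold at 24 h. In the authors' deposited table Sqle, the squalene epoxidase just before it, had a log2 fold of 0.07 (SE 0.05) and Cyp51, which demethylates lanosterol just after it, of -0.02 (SE 0.06). The authors' deposited table gives 0.25 (SE 0.11) for Fdft1, squalene synthase, and the adjusted p of the DESeq2 Wald test was 0.12. Another gene, Ctsb, covers 18.3% of the exon bases of Fdft1 on the other strand. Nsdhl, a sterol dehydrogenase, was at 0.22 (SE 0.09) and Tm7sf2, a sterol reductase, at 0.35 (SE 0.19) in the authors' deposited table, with adjusted p of 0.12 and 0.24 in the DESeq2 test. Tm7sf2 shares 12.1% of its exon bases with Vps51 on the same strand, and Fdps shares 26.7% with a gene model there. For Ebp, a sterol isomerase, the authors' deposited table gives 0.14 (SE 0.09). Mvk, Pmvk and Mvd, which phosphorylate and decarboxylate mevalonate, ranged from -0.12 to -0.02, each with an SE of 0.13 to 0.15 in the authors' deposited table. Idi1 and Fdps, which make and join isoprenoid units, were at 0.27 (SE 0.29) and 0.13 (SE 0.11), and Msmo1, Hsd17b7 and Sc5d of the late steps at -0.04 to -0.01 in the authors' deposited table.

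No regulator passed the test at either time. Srebf1 and Srebf2, the genes of the SREBP factors, were at 0.08 (SE 0.06) and 0.05 (SE 0.09) at 24 h in the authors' deposited table. Implied levels of Srebf2 at 24 h were 2585 normalised counts in ethanol and 2672 in tamoxifen. The authors' deposited table gives 0.03 (SE 0.05) for Scap, the escort of the SREBPs, and 13.2% of its exon bases are shared with a gene on the other strand. Insig1, an anchor that SREBP itself induces, was at 0.28 (SE 0.11), and the related anchor Insig2 at -0.00425 (SE 0.08), in the authors' deposited table. Insig1 had implied levels of 183 and 222 at 24 h and an adjusted p of 0.0831 in the authors' DESeq2 Wald test. For Stard4, a carrier of cholesterol between membranes, the authors' deposited table gives 0.15 (SE 0.14).

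The folds at both times were then compared, to see whether the members responded differently at 24 h. No member passed the test of the difference: the lowest unadjusted p in the Wald test of the difference was 0.16, for Fdft1, 0 of 32 were under 0.05 unadjusted, and 0 of 32 passed after Benjamini-Hochberg adjustment, where 0.0134% of 14981 genes passed. The differences, 24 h minus 12 h, ran from -0.13 to 0.38 on the log2 scale, and 24 of 32 were above 0. The share of the 14981 genes with a difference above 0 is not given here, so this count stands without a background. For all 6 members called at 24 h the 12 h fold had the same sign, and for all 6 the 12 h interval contained the 24 h fold. The shares of all 1447 genes called at 24 h that did so were not computed, so whether these counts are particular to the members is not known. A fold of the 24 h size would not have been called in the 12 h table for any of the 6, where 0.42 (Fads1) to 1.496 (Scd2) was needed. Across the 32 members the folds at both times had a Spearman's rho of 0.53. The corresponding value over the 9465 genes whose mean reached 100 normalised counts was 0.54.

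Many members had larger SEs at 12 h than other genes of like level. The SE of each gene was divided by a running median of the SEs of genes with similar means. At 12 h the median of this ratio over the members was 1.33, and 25 of 32 members were above 1. It was at least 1.5 in 10 of the 31 members with a mean of at least 100, against 7.14% of all such genes. Elovl6 had a ratio of 3.25, Insig1 of 3.24 and Scd2 of 3.21, each above the SE ratio of at least 98.9% of such genes. Stard4 followed at 2.05, Hmgcs1 at 1.92, Fdft1 at 1.88, Mvd at 1.79 and Sqle at 1.73. Fads1, Pmvk, Scap and Msmo1 were not part of this, with ratios of 0.894, 0.896, 0.804 and 0.775. At 24 h the median ratio was 0.999, and only Srebf2, at 1.89, was at least 1.5, against 5.25% of genes. Which 12 h libraries carry this spread cannot be read from a mean and an SE, so no value without them can be given.

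**Figure D2:**
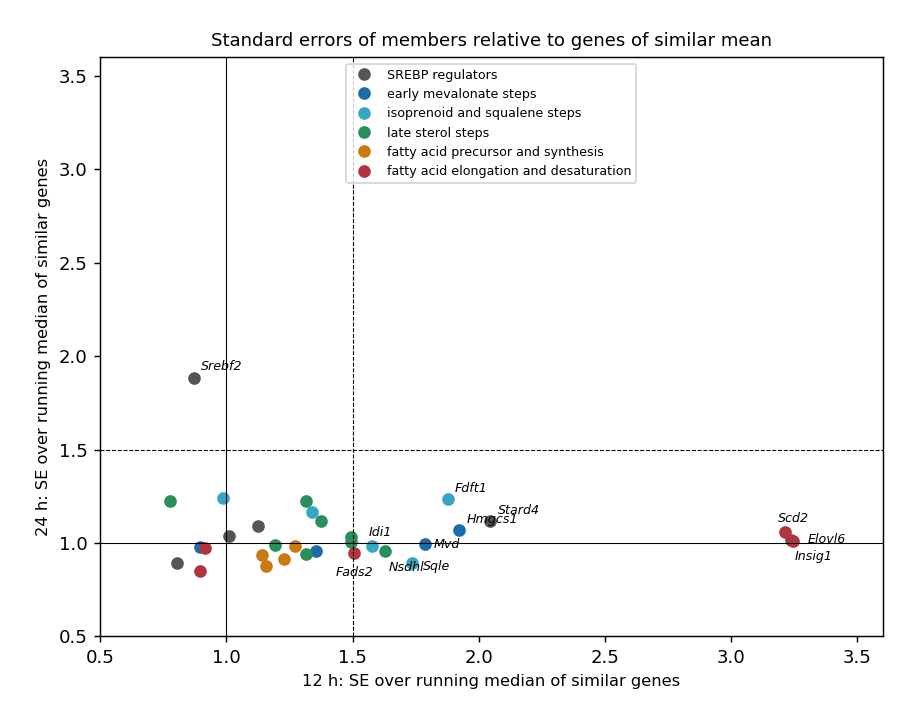
Standard error of the fold over that of genes with similar means, at 12 h (x axis) and at 24 h (y axis), for the 32 genes coloured by pathway group. Dashed lines mark 1.5: Elovl6, Insig1 and Scd2 lie above 3 at 12 h and near 1 at 24 h, and only Srebf2 exceeds 1.5 at 24 h.

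Levels of many members also differed between the times, in ethanol and tamoxifen alike. The tables were normalised separately, so each mean was expressed as CPM of its table's total, and no test was made across them. Time and any difference in handling, sequencing or processing of both sets cannot be told apart. Of the 32 members 29 had a lower level at 24 h, and 14 were at least 2-fold lower. The 3 with a higher level were Insig2, Acaca and Fasn, at most 1.36-fold higher, where 7.6% of 9465 genes were at least 2-fold higher. Among the 30 members with a mean of at least 100 over both times, 13 (43.3%) were at least 2-fold lower, against 9.21% of 9465 genes. The median log2 ratio of 24 h over 12 h was -0.89 for the members and -0.06 for these genes. A lower level was thus also the more common direction among these genes. Summed over the 17 sterol enzymes, the level was 1562 CPM at 12 h and 805 at 24 h. Lists of related lipid genes, described below, differed less, but some lists of cell type markers did not. In normalised counts without scaling, the 32 members summed to 57683 at 12 h and 30958 at 24 h. The 14 other genes of sterol synthesis and SREBP processing summed to 27090 and 20808. The 20 other fatty acid synthesis genes summed to 27817 and 21257. The 10 biliary markers summed to 139451 and 58109, and the 8 hepatocyte markers to 9587 and 4877, while immune markers summed to 80.7 and 77.9. A lower sum at 24 h was thus not particular to the members.

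Mevalonate and isoprenoid enzymes were among those with the lowest ratios. Fdps, farnesyl diphosphate synthase, stood at 150 CPM at 12 h and 27.1 at 24 h, 5.55-fold lower. In implied normalised counts, Fdps had 2140 in ethanol and 2047 in tamoxifen at 12 h, and 306 and 335 at 24 h, so both 24 h levels lay below both 12 h levels. Mvk was 4.11-fold, Mvd 4.07-fold, Fdft1 3.90-fold and Pmvk 3.69-fold lower in CPM at 24 h. In the late steps Tm7sf2 was 3.79-fold, Ebp 3.65-fold, Dhcr7 3.31-fold, Nsdhl 3.27-fold and Cyp51 2.33-fold lower in CPM. Idi1, the isomerase of isoprenoid units, was 2.94-fold lower from a low level of 6.02 CPM. Among regulators Stard4 and Insig1 were 2.61-fold and 2.51-fold lower in CPM, while Insig2 stood at 40.8 at 12 h and 50.0 at 24 h.

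Other steps of the same route differed less between the times. Msmo1, the sterol methyl oxidase, stood at 202 CPM at 12 h and 199 at 24 h, and Lss at 78.3 and 73.8. Sc5d and Hsd17b7 were each 1.24-fold lower, Hmgcs1 1.51-fold and Sqle 1.52-fold lower in CPM. Of the 9 fatty acid enzymes only Fads2 was at least 2-fold lower, at 97.9 CPM at 12 h and 24.7 at 24 h. Fads1 stood at 171 and 134, Fasn at 496 and 505, and Acaca at 40.1 and 54.4. The order by level per kilobase of transcript changed with this: Fdps was in place 1 of the 32 at 12 h and 13 at 24 h, and Msmo1 was in place 2 at 12 h and 1 at 24 h. Scd2 was in place 3 at both times, and Idi1 in place 32.

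**Figure D3:**
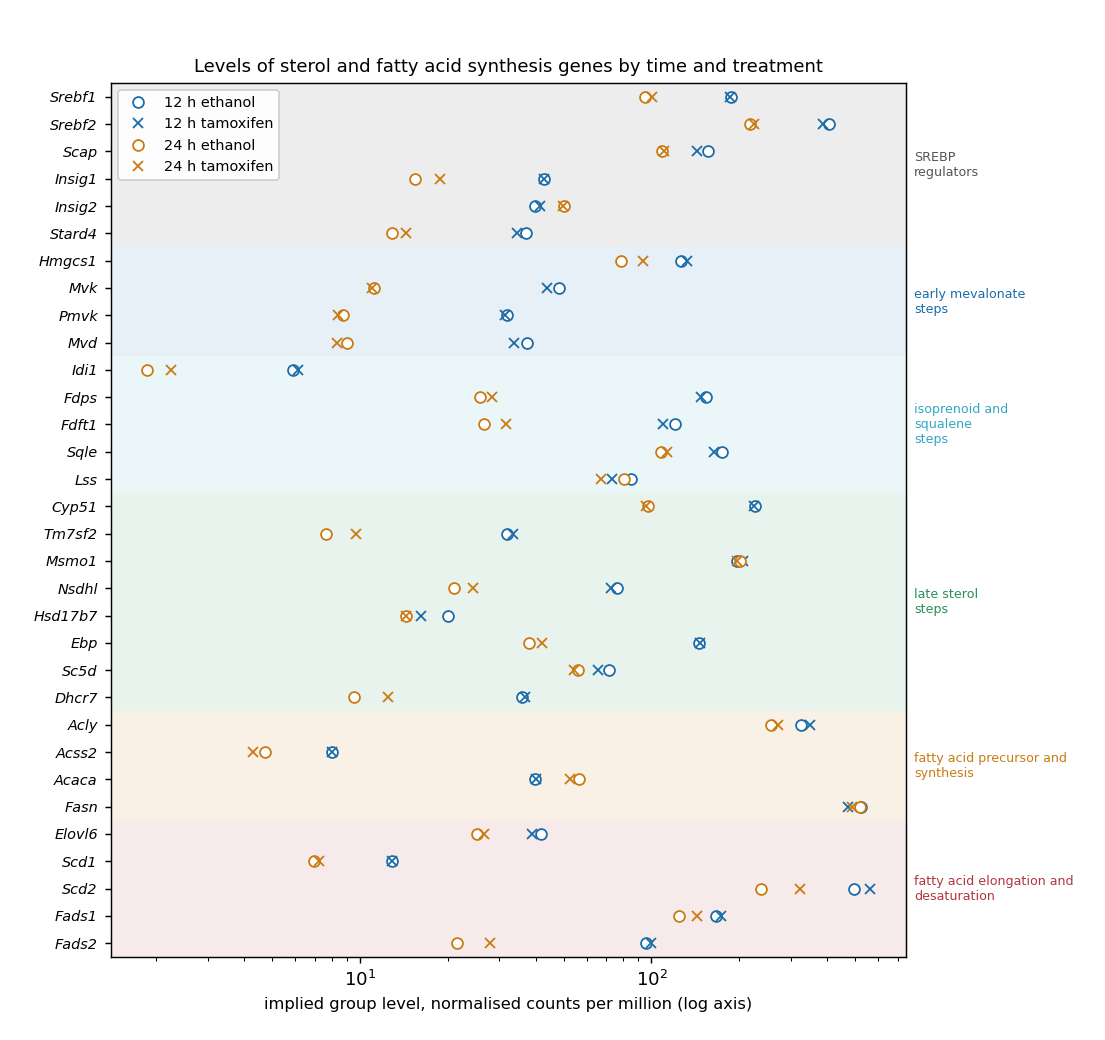
Implied level of each gene in ethanol (circles) and tamoxifen (crosses) at 12 h (blue) and 24 h (orange), in CPM of each table on a log axis. For Fdps, Mvk, Mvd, Fads2 and most other sterol genes the distance between the times is far wider than that between treatments, and for Msmo1, Lss and Fasn it is not.

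Gene length and base composition moved with this ratio across all genes. Over 9078 genes Spearman's rho of the log2 ratio was 0.54 with transcript length and -0.45 with GC content, so short and GC-rich genes stood lower at 24 h. The members had a median length of 3462 bases and a GC content of 51.3%, against 3248 and 50.0% of all genes. Set against the median of the 200 genes closest in length and GC content, 17 members were at least 2-fold lower at 24 h. The median log2 difference of the members from these neighbours was -1.16. The share of all genes at least 2-fold below their own neighbours was not computed, so the 17 stand without a background. For Fdps the neighbours stood at -0.55 and the gene 1.92 below them. For Stard4, with a long transcript, the neighbours were at 0.54 and the gene 1.93 below them. Msmo1 differed from its neighbours by 0.05 and Lss by -0.13.

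**Figure D4:**
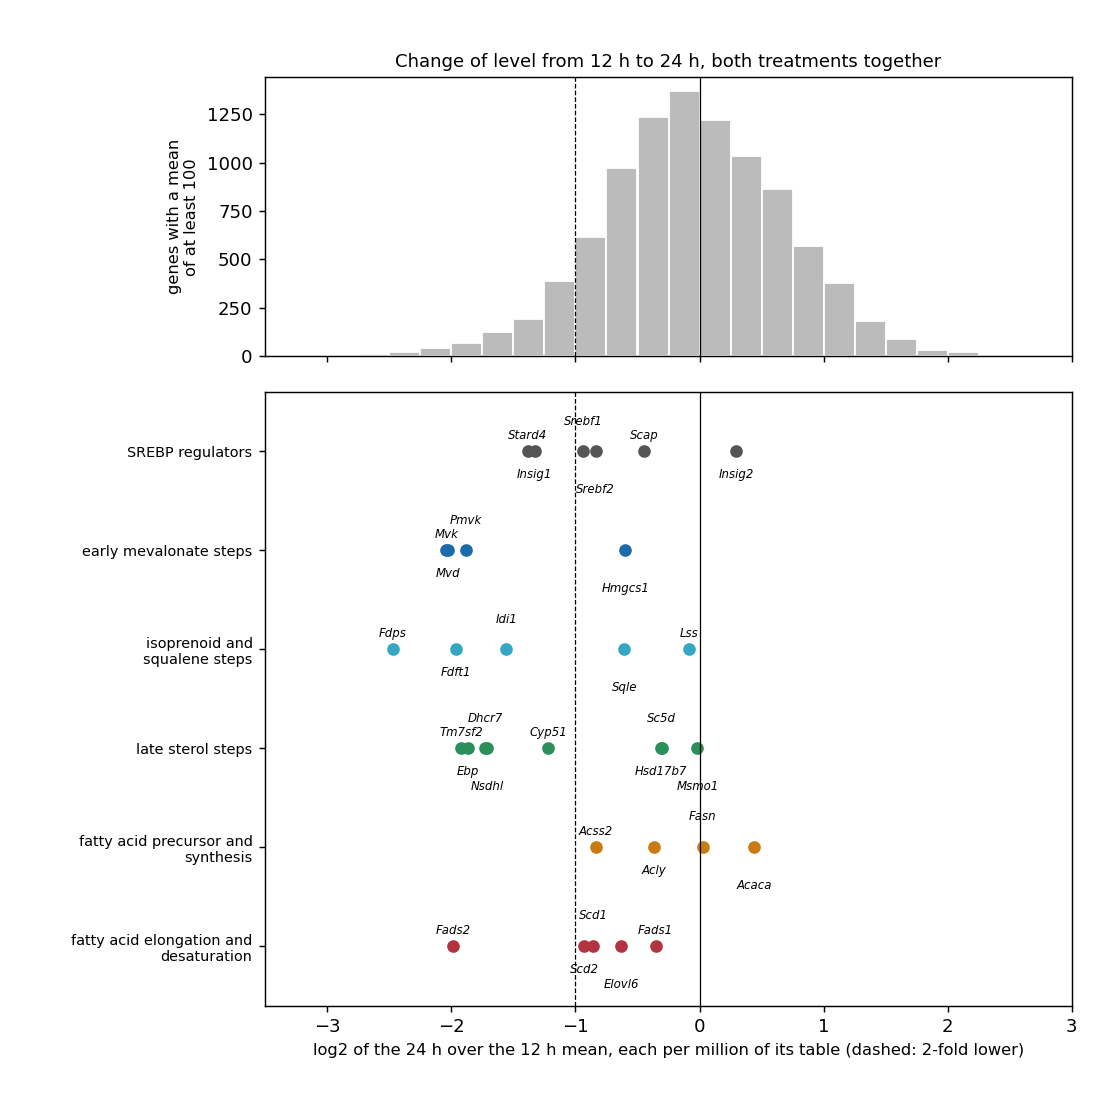
Log2 of the mean at 24 h over that at 12 h, each as CPM of its table (x axis), for 9465 genes with a mean of at least 100 (top, count per bin of 0.25) and for the 32 members by pathway group (bottom). The dashed line marks a 2-fold lower level: 14 members lie to its left, 11 of them sterol enzymes.

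Across the members, those with the lower level at 24 h tended to have the higher tamoxifen fold at that time. Spearman's rho of the log2 level ratio and the 24 h fold was -0.44 over the 32 members, and over the 9465 genes it was -0.12. The points share the 24 h libraries and differ in depth, so the value is a description. Of the 14 members at least 2-fold lower at 24 h, 11 had a sequence window, and 10 of these held a CCAAT box, as did 10 of the other 14 members with a window.

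The wider lipid pathway was described from 4 further lists. Their counts stand beside 0.215% of all genes tested that rose and 0.728% that fell at 12 h, and 5.9% and 6.52% at 24 h. Of 14 other genes of sterol synthesis and SREBP processing in the tables, 0 passed at 12 h and 0 at 24 h in the authors' DESeq2 Wald test, with 0 and 3 at an unadjusted p under 0.05. Of 20 other fatty acid synthesis genes, 18 had an adjusted p at 12 h and 16 at 24 h. At 12 h 0 of the 18 passed in the authors' DESeq2 Wald test (1 at an unadjusted p under 0.05), and at 24 h 2 of the 16 fell and 0 rose. They were Me1, the malic enzyme that supplies NADPH, at -0.32 (SE 0.04) and Aacs, which makes acetoacetyl-CoA for lipid synthesis, at -0.23 (SE 0.06) in the authors' deposited table. Of 17 genes of sterol uptake, efflux and LXR response, 15 had an adjusted p at 12 h and 14 at 24 h. At 12 h 0 of the 15 passed in the DESeq2 test (1 unadjusted), and at 24 h 2 of the 14 fell and 0 rose. These were Nceh1, a cholesteryl ester hydrolase, at -0.63 (SE 0.08) and the oxysterol-binding protein gene Osbpl1a at -0.21 (SE 0.08) in the authors' deposited table.

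Of 20 genes of fatty acid oxidation and PPAR response, all with an adjusted p at both times, 1 rose at 12 h (0.215% of all genes tested did), and 2 rose and 1 fell at 24 h (5.9% and 6.52%). Pdk4, which limits the entry of pyruvate into the citric acid cycle, rose by 0.92 (SE 0.19) at 12 h and 0.69 (SE 0.15) at 24 h in the authors' deposited table. Angptl4, an inhibitor of lipoprotein lipase, rose by 0.47 (SE 0.12), and the lipid droplet coat gene Plin2 fell to a log2 fold of -0.17 (SE 0.04) at 24 h in the authors' deposited table. The median log2 folds of these 4 lists at 24 h were 0.02, 0.04, 0.00153 and -0.00289 in the order given, against 0.07 for the members.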

How the data were processed

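RNA-seq libraries, single-end per the series' design text, were prepared with an unstranded TruSeq kit, per the labels' protocols. HISAT2, DESeq2 and mm10 are named in the submitters' processing notes. Their versions and roles, the counting tool and the annotation are not stated there. The authors' deposited tables give, per the file headers, the mean normalised count (a signal averaged over all libraries of a time), the log2 fold change with its SE, the Wald score, and a p-value before and after adjustment. No header names the direction of the fold. Genes with a single read fall on 7 means at 12 h, 3 with negative and 4 with positive folds, which matches 3 ethanol and 4 tamoxifen libraries if folds are tamoxifen over ethanol; at 24 h the split, 4 and 4, does not tell, and the same direction was taken.

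The threshold for a call was an adjusted p of 0.05, with 13044 genes tested at 12 h and 11648 at 24 h. Count-based fits planned in case of values per library did not apply. Group levels were solved from mean, fold and library numbers, and are close to, but not, group averages. The fold needed for a call is the SE times the smallest called Wald score, 3.50 at 12 h and 2.74 at 24 h. Differences between times were tested as the difference of folds over the root of summed squared SEs, a script that was also tested on simulated data. Intervals are 1.96 SEs wide on each side. Lengths, GC content (longest coding transcript) and positions come from GENCODE on GRCm38. Alternatives changed the threshold, the genes adjusted over, the centring and the SE. The 12 h ethanol replicate with number 2 was not analysed here. The rule names every member, with full statistics for those called, and up to 4 called genes per further list; fatty acid, sterol and marker lists were written by hand. The result of 1 biliary marker gene is not reported here. The members and lists were chosen with earlier results of these data known. Calculations used scipy 1.17.1, pandas 2.3.3 and numpy 2.4.6 in Python 3.11.15, and figures matplotlib 3.10.9.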

Additional observations from a re-analysis of the deposited data

How the results depend on the processing

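The count of 0 members called at 12 h held under all 6 alternatives, and so did the count of 0 members that differed between times under its 5. A threshold of 0.01 or a raised SE cannot add a call, so under these a count of 0 was fixed in advance. At 24 h the members called numbered 5 to 7: 5 at an adjusted p under 0.01, 7 at 0.1, 5 adjusted over all genes with a p, and 6 adjusted over genes with a mean of at least 100, with folds centred, or with SEs raised to the running median. The count of falls was 1 in each. Dhcr7 was the gene lost, whose adjusted p was 0.0387 as deposited and 0.0524 over all genes with a p; Hmgcs1, Lss, Scd2, Fads1 and Fads2 passed under each alternative. The median log2 fold of the members lay between -0.02 and -0.01 for 12 h and between 0.07 and 0.08 for 24 h. The count of members at least 2-fold lower in level at 24 h, 14, was 17 relative to genes of like length and GC content, 14 scaled to the median gene and 19 without scaling, alternatives chosen after seeing the data. Shares of all genes under these alternatives for the level are not given here. Leaving out replicates was not run, since the tables hold no values per library. No paired analysis was possible because the tables hold comparison columns that carry no replicate numbers. Idi1 and Acss2 were measured at low depth, with means of 24.2 and 53.2 normalised counts at 24 h.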
